A study of Macaca mulatta with 449 samples.

Results

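Tachykinins are short neuropeptides cut from larger precursors, and they act through G protein-coupled receptors. TAC1 encodes the precursor of substance P and neurokinin A, and TAC3 encodes the precursor of neurokinin B. TACR1 encodes the receptor preferred by substance P, TACR2 the receptor preferred by neurokinin A and TACR3 the receptor preferred by neurokinin B. In the striatum, substance P is known as a peptide of the projection neurons of the direct pathway, whereas in the hypothalamus neurokinin B is known for its part in the control of reproduction. The 5 members were chosen by symbol from a table of 30807 genes, and 4 of them were matched to a row of it, namely TAC1 (ENSMMUG00000014823), TAC3 (ENSMMUG00000003203), TACR1 (ENSMMUG00000001846) and TACR2 (ENSMMUG00000015310). TACR3 was not matched by its identifier in the reference table, which is of another assembly, and was not analysed here.

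The brains of 8 healthy rhesus macaques were dissected, and RNA depleted of ribosomal RNA was sequenced from each sub-region. The counts analysed here covered 51 sub-regions in each of 8 animals, none of which is labelled as treated or genetically changed. The 4 young animals were a female of 3.2 years, a female of 5 years and males of 3.8 and 4 years, and the 4 mid-aged animals were a female of 9.8 years, a female of 10 years and 2 males of 10 years. Sub-regions were joined into 16 region groups: the cortex with 31 sub-regions, the striatum with the accumbens nucleus, caudate nucleus and putamen, the hippocampus with the dentate gyrus, CA1 and CA3, the cerebellum with its cortex and vermis, and 12 groups of 1 sub-region each. Levels are given as counts per 1000000 counts of the effective library size (CPM), as mean ± SD over the 8 animals. A region group's level in an animal is the mean over its sub-regions. These levels compare samples for 1 gene and not the genes with each other, since they are not divided by gene length.

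Total counts ranged from 7784678 to 31083490 per sample, with a median of 10698602. The striatal, hypothalamic, thalamic and dopamine neuron markers were at their highest in the region groups that bear those labels, and a few libraries stood apart. The hypothalamus sample of animal 6 had a summed level of cortical excitatory neuron markers of 614 CPM, against 10.7 to 18.2 CPM in the other 7. In the globus pallidus sample of animal 3 the summed striatal markers reached 536 CPM, against 201 to 247 CPM in the others. The medulla oblongata sample of animal 6 had the lowest cortical excitatory sum (16.1 CPM), cholinergic sum (0.083 CPM) and thalamic sum (11.6 CPM) of its group and the highest oligodendrocyte sum (92580 CPM). The ventral tegmental area sample of animal 2 had a dopamine neuron sum of 30.0 CPM, whereas the highest of that group was 539 CPM. In samples of whole tissue, fewer cells of a type and less RNA per cell cannot be told apart.

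Each of the 4 measured members differed between the 16 region groups (edgeR quasi-likelihood F test with animal as a block, adjusted p from 2.37e-49 for TAC1 to 7.25e-31 for TACR2). Of all genes tested 99.7% did so, so that the place and the size of the differences carry the description. In the 15 contrasts with the cortex, 5 of 60 tests of a member were called higher and 32 of 60 lower, at an adjusted p under 0.05 and a change of over 2-fold. Over all genes 12.3% of such tests were called higher and 12.2% lower. TAC3 was higher than the cortex in 0 region groups and lower in 12, TAC1 was higher in 2 and lower in 9, TACR1 was higher in 3 and lower in 5, and TACR2 was higher in 0 and lower in 6.

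**Figure D1:**
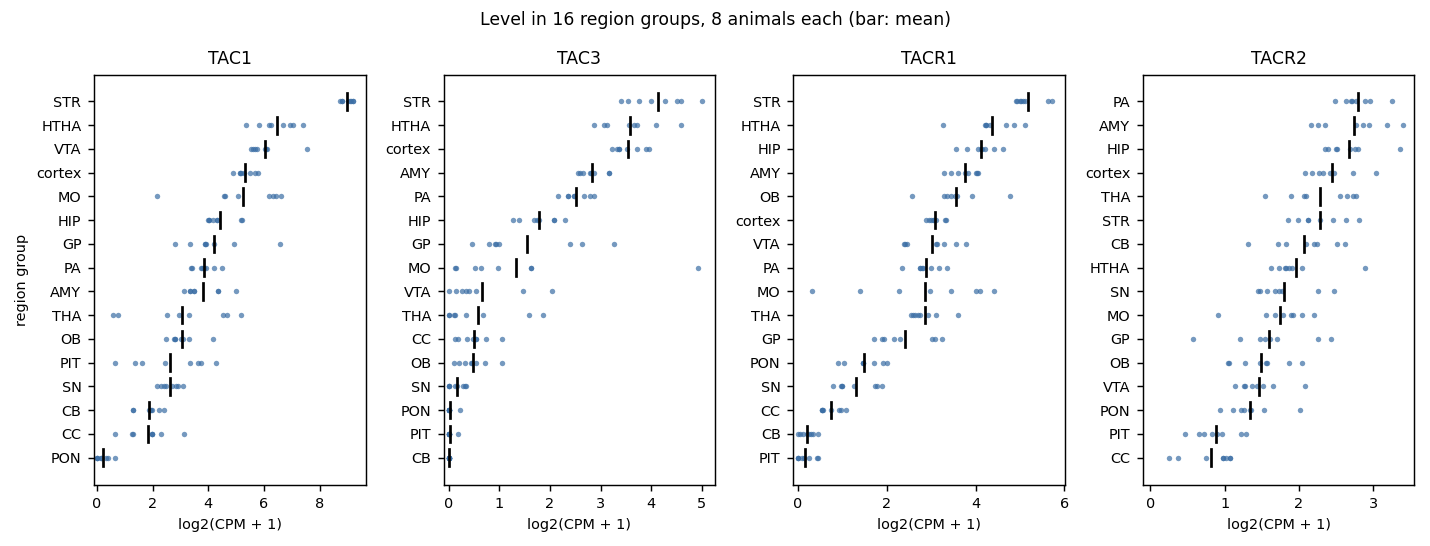
Level of each measured member in the 16 region groups, as log2(CPM + 1), with a point for each of 8 animals and a bar at the mean. TAC1 has its highest mean in the striatum (513 CPM) and its lowest in the pons (0.171 CPM), and TACR2 stays between 0.791 and 6.05 CPM.

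TAC1, the substance P and neurokinin A precursor, was by far most abundant in the striatum. Striatal TAC1 was 418 CPM in the lowest animal, 534 CPM at the median and 582 CPM in the highest, with a mean of 513 ± 65.9 CPM (SD, n = 8). In the cortex the lowest animal had 28.9 CPM, the median was 36.4 CPM and the highest animal had 54.6 CPM. The animals of the striatum and the cortex did not overlap, and the ratio of the means was 12.8 (8.88 to 18.1 in single animals). The fitted log2 fold change was 3.70 (SE 0.41, edgeR adjusted p = 1.23e-13). TAC1 was the only member specific to a region group, that is over 2-fold higher in the striatum than in every other group, with 2.47 on the log2 scale to the next one, the hypothalamus. Among all genes, 0.873% were specific to the striatum.

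The hypothalamus was second for TAC1, at 95.3 ± 42.1 CPM (SD, n = 8), and 1.23 higher than the cortex on the log2 scale (SE 0.38, edgeR adjusted p = 0.00368). Its animals ranged from 39.9 CPM over a median of 89.0 CPM to 166 CPM, and each was above its own cortex although the 2 ranges overlapped. The ventral tegmental area, home of midbrain dopamine neurons, had 72.6 ± 46.1 CPM. There animal 7 had 185 CPM while the other animals had 45.8 to 68.6 CPM, and the same sample had the highest cholinergic marker sum of its group (53.7 CPM, against a median of 10.2 CPM). The part of those markers in the TAC1 level was not tested. The contrast with the cortex was 0.88 (SE 0.38) with this sample and 0.48 (SE 0.38) without it, neither of which was called. TAC1 in the substantia nigra, sampled beside the ventral tegmental area, was 5.25 ± 1.44 CPM, with no overlap between the 2 structures, and the contrast was −3.82 (SE 0.45, edgeR adjusted p = 1.23e-11).

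TAC1 separated other neighbouring structures as well. In the globus pallidus, a target of striatal axons, the level was 24.7 ± 28.9 CPM, and the contrast with the striatum was −4.56 (SE 0.44, edgeR adjusted p = 3.7e-17). Animal 3, whose pallidal sample held more striatal markers, had 94.1 CPM of TAC1 and the other animals 6.06 to 29.1 CPM. Without that sample the pallidum was called lower than the cortex (−1.35, SE 0.40, edgeR adjusted p = 0.00159), whereas with it the contrast of −0.86 (SE 0.39) did not pass the 2-fold threshold. The thalamus had 12.9 ± 12.6 CPM and was 2.78 below the hypothalamus on the log2 scale (SE 0.42). The medulla oblongata had 51.6 ± 34.98 CPM, with animals from 3.47 to 95.6 CPM, and the pons 0.171 ± 0.203 CPM, with animals from 0 to 0.58 CPM. All 8 animals had more TAC1 in the medulla than in the pons, and the fitted contrast of 8.08 (SE 0.69) rests on a handful of counts on the side of the pons. In the pituitary TAC1 was 7.53 ± 6.40 CPM, which was 3.70 lower than in the hypothalamus (SE 0.43).

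TAC3, the neurokinin B precursor, had its highest group means in the striatum (17.8 ± 7.39 CPM), the hypothalamus (11.9 ± 5.54 CPM) and the cortex (10.9 ± 2.37 CPM). The striatal mean joins unlike sub-regions, with 12.95 to 82.1 CPM in the accumbens, 8.09 to 15.9 CPM in the caudate and 3.17 to 9.56 CPM in the putamen. Single striatal sub-regions were not tested against the cortex. Striatal TAC3 ranged from 9.61 over a median of 16.7 to 31.3 CPM, and cortical TAC3 from 8.39 over 9.90 to 14.5 CPM. Each animal had more in its striatum than in its cortex, but the ranges overlapped and the contrast was not called (0.68, SE 0.41, edgeR adjusted p = 0.155). The hypothalamus ranged from 6.34 CPM over a median of 11.2 CPM to 23.2 CPM and was above the cortex in 4 of 8 animals (0.19, SE 0.41, edgeR adjusted p = 0.723). The highest hypothalamic value came from animal 11, whose sample also had the highest cholinergic sum of its group (68.5 CPM, against a median of 2.28 CPM). Whether those markers bear on the TAC3 level was not tested.

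Outside these 3 region groups and the amygdala, TAC3 was lower than in the cortex throughout. The amygdala, with 6.18 ± 1.21 CPM, lay below the cortex in every animal without overlap, but its contrast missed the threshold (−0.81, SE 0.43, edgeR adjusted p = 0.125). The hippocampus had 2.55 ± 0.857 CPM and was 1.33 lower than the amygdala on the log2 scale (SE 0.45, edgeR adjusted p = 0.0179, or 0.0702 without the animal block and 0.0787 with DESeq2). The entorhinal and perirhinal cortex, with 4.80 ± 0.972 CPM, was 1.12 below the cortex (SE 0.43, edgeR adjusted p = 0.0336), a call that was likewise lost without the block (0.0732) and with DESeq2 (0.152). In the cerebellum 0 of 16 libraries had a TAC3 count. A floor of 3 counts per library is 0.249 CPM there, so that TAC3 was at least 71.5-fold higher in the striatum and at least 43.7-fold higher in the cortex; floors cover counting error only. The pons and the pituitary each had 2 TAC3 counts over 8 libraries, with 7 libraries at 0.

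The medulla oblongata had a mean TAC3 level of 4.45 CPM, which came mostly from 1 sample. Animal 4 had 29.3 CPM there, and the other 7 had 0.083 to 2.10 CPM. The same sample was the highest of its group for PDYN (108 CPM, the others up to 30.6 CPM) and SST (231 CPM, the others up to 133 CPM), whose part in the TAC3 level was not tested. The contrast with the cortex was −1.84 (SE 0.47) with that sample and −3.69 (SE 0.45) without it, and the contrast with the pons was 6.83 (SE 1.05) and 4.97 (SE 1.08). The size of both contrasts with the pons rests on the 2 TAC3 counts over its 8 libraries. In the midbrain pair, TAC3 was lower in the substantia nigra than in the ventral tegmental area (−2.67, SE 0.94, edgeR adjusted p = 0.0238). That call was lost without the ventral tegmental area sample of animal 7 (−2.26, SE 0.99, edgeR adjusted p = 0.0822), and both levels were under 1 CPM on average.

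TACR1, the substance P receptor, was highest in the striatum, where its preferred peptide's precursor was highest too. Striatal TACR1 was 28.9 CPM in the lowest animal, 31.9 CPM at the median and 51.8 CPM in the highest. Cortical TACR1 ranged from 6.42 over 7.28 to 9.12 CPM. The ranges did not overlap, every animal had 3.99 to 5.76 times its cortical level in the striatum, and the contrast was 2.19 (SE 0.27, edgeR adjusted p = 7.13e-12).

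The hypothalamus and the hippocampus also had more TACR1 than the cortex. The hypothalamus had 20.9 ± 7.76 CPM (SD, n = 8) and a contrast of 1.44 (SE 0.27, edgeR adjusted p = 1.98e-06). Its lowest animal was animal 6, at 8.68 CPM, whose sample carried the cortical markers, and the contrast without it was 1.52 (SE 0.27). The hippocampus had 16.8 ± 4.02 CPM and a contrast of 1.16 (SE 0.26, edgeR adjusted p = 0.000114). The amygdala had 12.7 ± 2.61 CPM and 0.74 (SE 0.27), which did not reach 2-fold.

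TACR1 was low in white matter, the cerebellum, the pons and the pituitary. It was 0.687 ± 0.271 CPM in the corpus callosum, 0.164 ± 0.123 CPM in the cerebellum and 0.135 ± 0.153 CPM in the pituitary. The pituitary was 7.14 lower than the hypothalamus on the log2 scale (SE 0.45). The size of that contrast rests on a handful of pituitary counts, with samples from 0 to 0.361 CPM. The ventral tegmental area (7.60 ± 3.15 CPM) exceeded the substantia nigra (1.57 ± 0.807 CPM) without overlap. That contrast was −2.26 (SE 0.33, edgeR adjusted p = 2.84e-08) for the nigra. The globus pallidus had 4.78 ± 2.49 CPM, 2.88 lower than the striatum on the log2 scale (SE 0.29). The pons had 1.90 ± 0.749 CPM and the medulla 9.28 ± 7.36 CPM, a contrast of 2.21 (SE 0.32). The medulla was higher in 7 of 8 animals, and the ranges overlapped. Animal 6, whose medulla sample stood apart in its markers, had 0.248 CPM there and 2.26 CPM in the pons.

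TACR2, the neurokinin A receptor, had few counts and varied less between region groups than the other members, from 0.791 to 6.05 CPM. Its median count was 43 per sample, and the highest mean, in the entorhinal and perirhinal cortex, was 6.05 ± 1.21 CPM. The amygdala (5.98 ± 2.15 CPM), hippocampus (5.51 ± 1.65 CPM) and cortex (4.55 ± 1.31 CPM) followed. The lowest levels were in the pituitary (0.871 ± 0.364 CPM) and the corpus callosum (0.791 ± 0.363 CPM). TACR2 was lower than in the cortex in 6 groups, from −1.07 (SE 0.21) in the globus pallidus to −2.53 (SE 0.24) in the corpus callosum, the others being the olfactory bulb, pituitary, pons and ventral tegmental area. The pallidal call was lost in 1 fit over all sub-regions (−0.97), and the medulla (−0.89, SE 0.21) was called without its sample of animal 4 (−1.02, SE 0.22). The striatum, where TAC1 and TACR1 peaked, differed from the cortex by −0.20 (SE 0.19, edgeR adjusted p = 0.398) in TACR2.

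Over the 6 pairs of neighbouring or connected structures, 17 of 24 member contrasts were called, against 17.7% over all genes. TAC3 was called in 6 pairs, TAC1 and TACR1 in 5 each and TACR2 in 1, the pituitary against the hypothalamus (−1.79, SE 0.25). Of the TAC3 calls, those of the amygdala and hippocampus and of the midbrain pair were lost in alternative fits given above. The TAC3 contrasts with the pons and with the pituitary have a side of 2 counts over 8 libraries. Without the pallidal sample of animal 3, TACR2 was also called lower in the globus pallidus than in the striatum (−1.08, SE 0.22, against −0.87, SE 0.22, with it).

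The order of levels was resolved at few places. An exact two-sided sign-flip test between neighbours in the order of means, on log2(CPM + 1) within animals, told 10 of 60 neighbour pairs apart, all at the smallest p that 8 animals allow (0.0078, adjusted p = 0.047). With a pseudocount of 0.1 in place of 1 the test told 0 pairs apart. For TAC1 these were the striatum over the hypothalamus, the substantia nigra over the cerebellum and the corpus callosum over the pons. For TAC3 they were the cortex over the amygdala, the entorhinal and perirhinal cortex over the hippocampus and the olfactory bulb over the substantia nigra. Both levels of that last pair were low, with 0.068 to 1.065 CPM in the bulb and 0 to 0.26 CPM in the nigra. For TACR1 they were the striatum over the hypothalamus, the nigra over the corpus callosum and the corpus callosum over the cerebellum, and for TACR2 the hippocampus over the cortex. TAC1 in the pons and TACR1 in the cerebellum also had few counts. The remaining neighbours were not told apart at this number of animals. Only pairs at the smallest p passed the adjustment, so that the others may still differ.

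Within the striatum the members did not share a gradient. Each of the 4 differed between the accumbens nucleus, caudate nucleus and putamen, as did 57.0% of all genes. TAC3 fell from the accumbens (36.5 ± 22.2 CPM) over the caudate (11.9 ± 3.36 CPM) to the putamen (4.95 ± 2.29 CPM). Accumbens TAC3 ranged from 12.95 over a median of 31.9 to 82.1 CPM, and putamen TAC3 from 3.17 over 3.82 to 9.56 CPM. No accumbens sample was as low as any putamen sample, and the contrast was 2.81 (SE 0.29, edgeR adjusted p = 1.5e-07), where 5.15% of genes were called higher and 3.60% lower. The accumbens exceeded the caudate by 1.51 (SE 0.26, edgeR adjusted p = 0.000295), in 7 of 8 animals. TAC3 was thus specific to the accumbens, as were 1.44% of all genes. MBP, a myelin gene of oligodendrocytes, also differed along this axis, with 2439 ± 784 CPM in the accumbens, 2787 ± 934 CPM in the caudate and 9806 ± 2205 CPM in the putamen. SLC17A7, a marker of cortical excitatory neurons, was at 232 CPM in the accumbens sample of animal 10 and 112 CPM in the putamen sample of animal 3, against medians of 6.48 and 1.99 CPM. The TAC3 ranges of both structures are the same without these 2 samples, and the part of the MBP difference was not tested.

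TACR1 had the opposite order, with 57.2 ± 17.4 CPM in the putamen, 30.0 ± 6.00 CPM in the caudate and 20.3 ± 6.06 CPM in the accumbens. Putamen TACR1 ranged from 44.96 over 50.98 to 94.3 CPM and accumbens TACR1 from 13.7 over 20.0 to 32.7 CPM, without overlap. The accumbens minus putamen contrast was −1.49 (SE 0.10, edgeR adjusted p = 1.4e-09), and the caudate minus putamen contrast was −0.92 (SE 0.10), under 2-fold. TAC1 was lower in the accumbens (345 ± 68.6 CPM) than in the caudate (585 ± 119 CPM) and putamen (608 ± 84.7 CPM), by 0.74 and 0.81 on the log2 scale (edgeR adjusted p = 4.2e-05 and 3.66e-06), so that neither difference reached 2-fold. TACR2 had 4.48 ± 1.74 CPM in the accumbens, 4.58 ± 1.46 CPM in the caudate and 2.90 ± 0.819 CPM in the putamen, and the accumbens minus putamen contrast was 0.59 (SE 0.17).

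**Figure D2:**
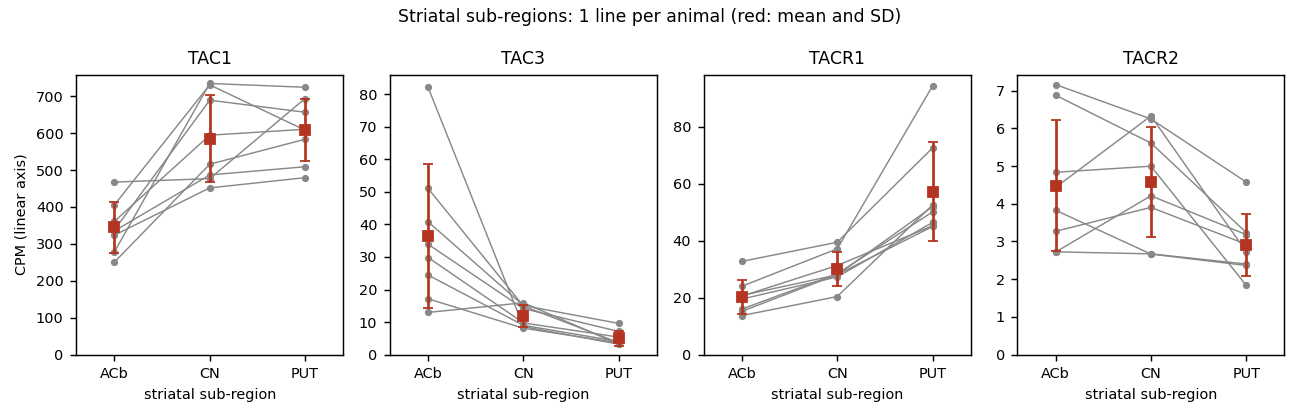
Level of each measured member in the accumbens nucleus (ACb), caudate nucleus (CN) and putamen (PUT), in CPM on a linear axis, with a line for each of 8 animals and red marks for the mean and SD. TAC3 runs down from the accumbens (36.5 CPM on average) to the putamen (4.95 CPM), whereas TACR1 runs up from 20.3 to 57.2 CPM.

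In the hippocampus TACR1 was highest in the dentate gyrus, the input field made mainly of granule cells. The dentate gyrus had 25.1 ± 6.66 CPM, with animals from 15.1 over a median of 23.7 to 35.8 CPM, and CA1 and CA3 had 12.6 ± 4.13 and 12.6 ± 4.65 CPM. The contrast was 1.04 with CA1 (SE 0.16, edgeR adjusted p = 0.000155) and 1.04 with CA3 (SE 0.16, edgeR adjusted p = 0.000189), just past 2-fold, and 0.480% of all genes were specific to the dentate gyrus. Without the animal block the contrast with CA3 was 0.997 and TACR1 was no longer specific. TAC1 went the other way, with 16.9 ± 6.84 CPM in the dentate gyrus, 24.7 ± 12.3 CPM in CA1 and 22.7 ± 9.81 CPM in CA3, and differed between the 3 fields (edgeR adjusted p = 0.0297) while no pair reached 2-fold. Of all genes, 32.7% differed between the 3 fields. TAC3 and TACR2 did not pass that test (edgeR adjusted p = 0.679 and 0.142).

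In the cerebellum TAC1 was scarce but uneven. Vermis samples ranged from 1.97 over a median of 4.43 to 5.49 CPM and samples of the cerebellar cortex from 0.473 over 1.295 to 3.24 CPM. Every animal had more in the vermis, by 1.70 to 5.21 times, although the ranges overlapped. The contrast was 1.55 (SE 0.19, edgeR adjusted p = 0.00299) with animal as a block and 1.49 (edgeR adjusted p = 0.0817) without it, and 0.105% of genes were called higher in the vermis. TAC3 and TACR1 were too low to be tested in that comparison, and TACR2 differed by 0.16 (SE 0.14).

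In the cortex the members varied little between gyri, and each had its own pattern. All 4 differed between the 31 cortical sub-regions, as did 75.0% of genes, and between the 5 lobes, as did 61.5%. The highest sub-region mean exceeded the lowest 1.74-fold for TAC1 (50.1 CPM in the posterior superior occipital gyrus, 28.9 CPM in the temporal polar gyrus) and likewise 1.74-fold for TAC3 (13.8 CPM in the intraparietal sulcus, 7.95 CPM in the posterior superior occipital gyrus). For TACR1 it was 1.56-fold, from 6.20 CPM in the anterior superior frontal gyrus to 9.68 CPM in the superior postcentral gyrus. For TACR2 it was 2.50-fold, from 2.42 CPM in the posterior superior occipital gyrus to 6.04 CPM in the insula.

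The occipital lobe, which holds the visual cortex, set TAC1 apart from TAC3 and TACR2. TAC1 was 0.30 higher there than in the other lobes on the log2 scale (SE 0.05, edgeR adjusted p = 6.46e-06) and lay above the animal's own mean over lobes in 8 of 8 animals. TAC3 was 0.36 lower (SE 0.07, edgeR adjusted p = 2.49e-05) and below that mean in all animals but 1. TACR2 was 0.50 lower (SE 0.06, edgeR adjusted p = 2.23e-08) and below it in all 8. At the same threshold, which has no fold limit, 56.3% of all genes differed in the occipital lobe. In the frontal lobe TAC1 was 0.25 lower, TAC3 0.15 higher (edgeR adjusted p = 0.0487, or 0.0536 with the size factors of DESeq2 and 0.0551 without a filter) and TACR2 0.29 higher. TACR2 was 0.27 higher in the temporal lobe, and TACR1 was 0.18 higher in the parietal lobe (SE 0.05) and 0.18 lower in the limbic cortex (SE 0.06, edgeR adjusted p = 0.0285, or 0.0586 without a filter on low counts). Altogether 9 of 20 lobe contrasts were called with animal as a block and 2 without it, and the test over the 5 lobes called 4 members with the block and 0 without.

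**Figure D3:**
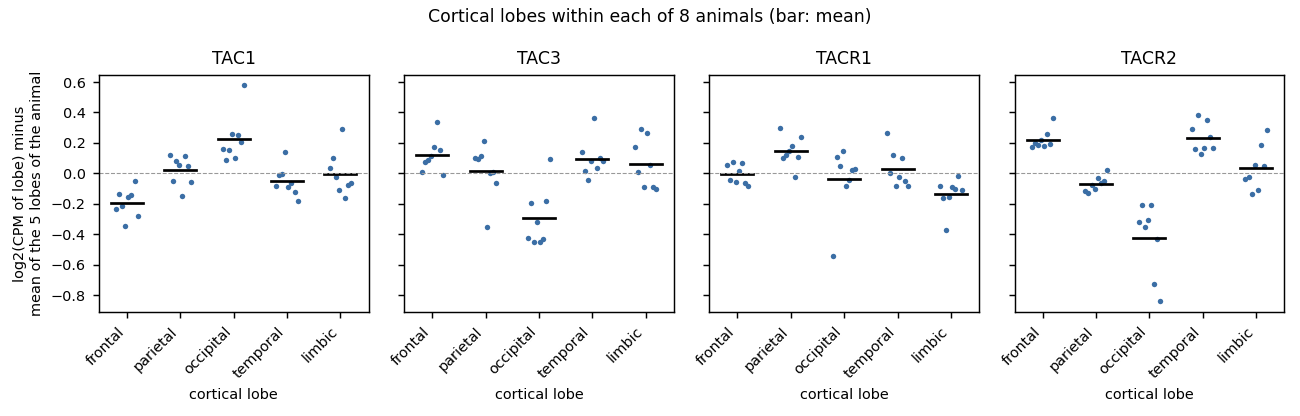
Log2 level of each measured member in the 5 cortical lobes relative to the animal's own mean over the lobes, with a point for each of 8 animals. In the occipital lobe TAC1 lies above 0 in all 8 animals and TACR2 below 0 in all 8.

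Genes that make, receive or break down tachykinins were read from lists, each described by its counts and its median. Of 7 peptide maturation genes, 1 was called in the striatum against the cortex. It was PCSK1, a prohormone convertase, which was lower (−1.77, SE 0.33), and the list's median was −0.07 against 0.01 for all genes. Of 5 breakdown genes, MME, the neprilysin gene whose product cleaves substance P, was called higher (5.19, SE 0.35), whereas DPP4, a dipeptidyl peptidase (−3.43, SE 0.31), and PREP, a prolyl peptidase (−1.49, SE 0.09), were called lower. Among 11 receptor signalling genes 1 was higher, PLCB2 (1.16, SE 0.20), and 1 lower, GNAS (−1.51, SE 0.13). Over all genes 8.73% were called higher and 8.18% lower in that contrast.

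Markers of striatal projection neurons were higher in the striatum as a group. All 5 direct pathway genes were called higher than in the cortex, with a median of 2.97, among them DRD1, the D1 dopamine receptor (2.97, SE 0.32), and PDYN, the dynorphin precursor (3.28, SE 0.49). So were the 3 measured indirect pathway genes, among them DRD2, the D2 dopamine receptor (7.00, SE 0.44), and PENK, the enkephalin precursor (5.40, SE 0.47). Of 9 interneuron genes 3 were higher (CHAT, NPY and NOS1) and 4 lower (CALB2, CCK, PVALB and VIP), while SST, the somatostatin precursor, was at −0.18 (SE 0.34) and LHX6, a transcription factor of interneurons, at −0.41 (SE 0.23).

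In the hypothalamus, all 7 tested genes of the list for kisspeptin and neurokinin B neurons were called higher than in the cortex, with a median of 2.51, where 11.0% of genes were called higher and 7.62% lower. They included KISS1R, the kisspeptin receptor (2.85, SE 0.31), ESR1, an oestrogen receptor (2.31, SE 0.31), and PDYN (1.17, SE 0.46). KISS1 itself did not pass the filter on low counts. Of the same list 5 of 7 were called higher in the striatum too. MME was lower in the hypothalamus (−1.30, SE 0.39), as were DPP4 (−2.56, SE 0.31) and PREP (−1.27, SE 0.09), and the maturation list had 1 gene called, PCSK1N (1.31, SE 0.20). Of 11 signalling genes PLCB2 was higher, and ITPR1 and PLCB1 were lower. The direct pathway list had 3 genes higher and 2 lower there, the indirect pathway list 3 of 3 higher, and the interneuron list 3 higher and 4 lower.

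Between accumbens and putamen, where TAC3 and TACR1 parted, MME was 3.09 lower in the accumbens on the log2 scale (SE 0.25, edgeR adjusted p = 7.56e-09). ACE, another peptidase, was lower as well (−1.15, SE 0.15). Of the 5 direct pathway genes 1 was called, PDYN, which was higher (2.46, SE 0.29), while the list's median was −0.25. Among the uncalled ones ISL1 was at 0.78 (SE 0.18) and DRD1 at −0.72 (SE 0.09). CHRM4, a muscarinic receptor, was at −0.93 (SE 0.10) and EBF1 at −0.25 (SE 0.22). Of the interneuron genes CALB2 was higher (2.14, SE 0.37), and PVALB (−3.12, SE 0.35), VIP (−2.14, SE 0.36) and NOS1 (−1.12, SE 0.31) were lower. CALB2 was scarce, with 1.44 CPM in the accumbens and 0.302 CPM in the putamen, where samples had 0 to 10 counts. The uncalled ones were SST at 0.84 (SE 0.15), LHX6 at 0.79 (SE 0.105), NPY at 0.18 (SE 0.13), CCK at 1.58 (SE 0.73) and CHAT at −0.69 (SE 0.29). The 7 maturation genes and the 3 indirect pathway genes stayed under 2-fold. Of 11 signalling genes 1 was called, PLCB1 (−1.31, SE 0.15). KISS1R was the other call of the kisspeptin list (1.24, SE 0.21).

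The genes most like each member over the 51 sub-regions were found by Pearson's r of the mean log2(CPM + 1) among 13212 genes, as a description without a test. For TAC1 they were PTPN5 (0.84), GRAP2 (0.84) and PMEPA1 (0.83). For TAC3 they were LHX6 (0.95), TMEM132D (0.90) and COL26A1 (0.89). For TACR1 they were KCNK2 (0.82), CHST1 (0.82) and DBN1 (0.82), and for TACR2 SEMA6B (0.92), AVL9 (0.91) and P2RX5 (0.91). The median gene had an r of −0.05 to −0.09 with the members. The 31 cortical sub-regions lie close together, and over the 20 others r was 0.90 for TAC3 with LHX6 and 0.83 for TAC1 with PTPN5.

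TAC1 and TACR1 had an r of 0.79 with each other over the 51 sub-regions, but Spearman's rho was 0.44, and all sub-regions come from the same 8 animals. TAC1 with DRD1 had an r of 0.81 and a rho of 0.47, and with PENK of the indirect pathway 0.74 and 0.58. Over the 20 sub-regions outside the cortex r was 0.82 with DRD1 and 0.84 with PENK. TAC3 had an r of 0.86 with SST and 0.58 with TACR1. TACR2 had an r of 0.75 with HK1, which neighbours it without overlap in the RefSeq annotation of another macaque assembly (T2T-MMU8v2.0).

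**Figure D4:**
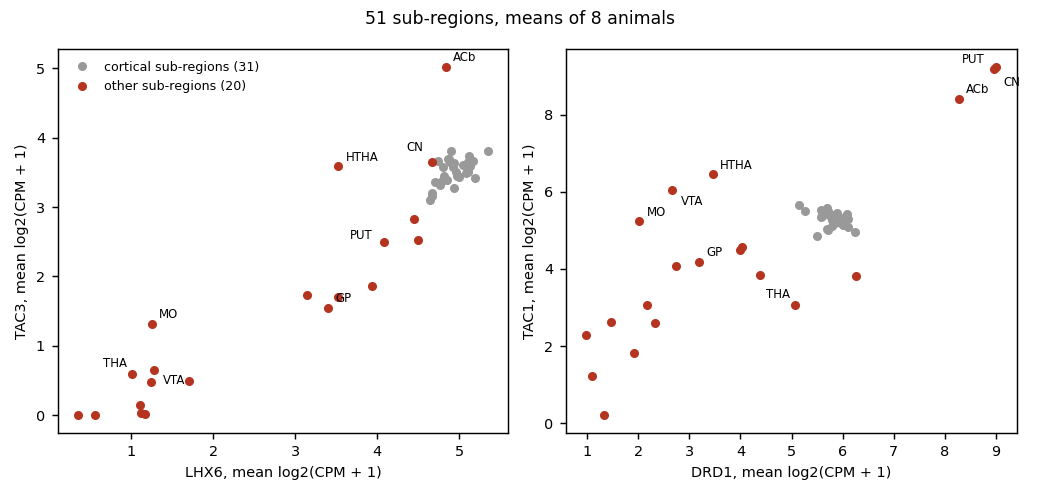
Mean log2(CPM + 1) over 8 animals of TAC3 against LHX6 and of TAC1 against DRD1, with a point for each of 51 sub-regions, grey for the 31 cortical ones and red for the 20 others. TAC3 rises with LHX6 (r = 0.95) with the accumbens at the top, and for TAC1 and DRD1 (r = 0.81) the 3 striatal sub-regions stand apart from the rest.

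Age was compared in each region group with 4 mid-aged against 4 young animals and sex as a covariate. At an adjusted p under 0.1 and over 2-fold, 0 of 50 tests of a member were called by edgeR, with 5 at an unadjusted p under 0.05, and DESeq2 called 3 (those of the next paragraph, adjusted p from 0.01 to 0.0995). Without a filter on low counts edgeR called TAC1 in the thalamus and in the medulla oblongata. It also called thalamic TAC1 without animal 7 and TAC1 of the medulla without animal 6. With the filter and all animals, 0.0164% of edgeR tests over all genes were called. In 3 of 51 pairs of member and region group with enough counts the 2 age stages did not overlap, against 3.80% over all genes.

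Thalamic TAC1 was higher in all 4 mid-aged animals, at 34.7, 24.6, 22.03 and 8.93 CPM, than in the 4 young ones, at 6.81, 4.70, 0.696 and 0.481 CPM. The contrast was 2.84 (SE 0.70, edgeR adjusted p = 0.3), and 7.14% of thalamic genes were without overlap. In the medulla oblongata both TAC1 and TACR1 were lower in the mid-aged animals. TAC1 was 3.47, 22.6, 23.03 and 32.5 CPM in the mid-aged and 70.7, 79.7, 85.3 and 95.6 CPM in the young animals (−2.06, SE 0.53, edgeR adjusted p = 0.443). TACR1 was 0.248, 1.65, 3.82 and 6.92 CPM against 9.97, 15.2, 16.1 and 20.3 CPM (−2.31, SE 0.72, edgeR adjusted p = 0.443). Of the genes of the medulla 7.56% were without overlap. Oligodendrocyte and cholinergic marker sums of the medulla also varied by animal. The oligodendrocyte sum was 45900 to 92580 CPM in the mid-aged and 29020 to 63430 CPM in the young animals, and the cholinergic sum 0.083 to 3.71 CPM and 0.641 to 29.8 CPM. Their part in the 2 differences was not tested. The hypothalamus had a TAC1 contrast of −0.89 (SE 0.30) with overlapping stages.

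**Figure D5:**
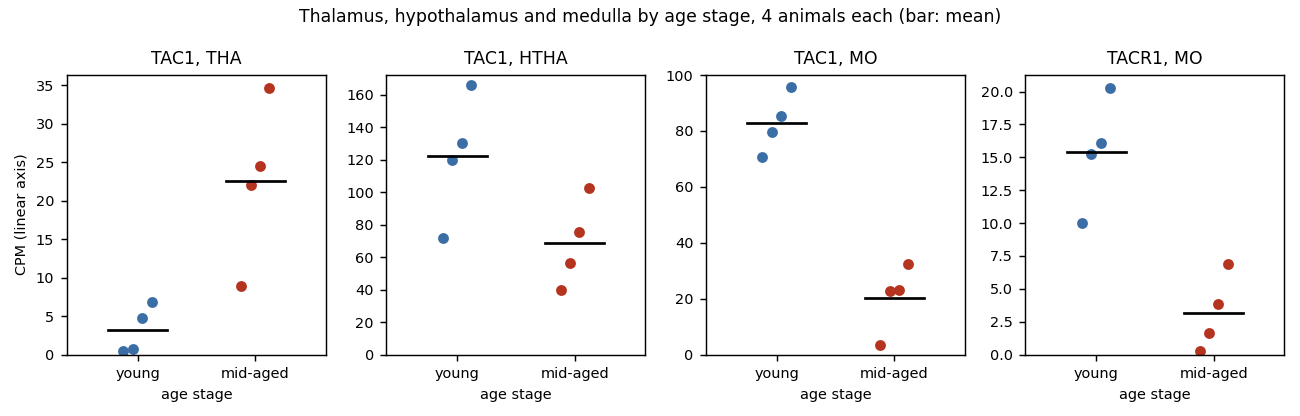
Level in CPM, on a linear axis, of TAC1 in the thalamus (THA), hypothalamus (HTHA) and medulla oblongata (MO) and of TACR1 in the medulla by age stage, with a point for each of 4 young and 4 mid-aged animals and a bar at the mean. The stages overlap for the hypothalamus and not in the other panels. No contrast passed the adjusted threshold in edgeR with the filter on low counts and all animals.

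Sex was compared in the same way with age stage as a covariate. By edgeR 0 of 50 tests were called, with 3 at an unadjusted p under 0.05, and by DESeq2 also 0. With edgeR 0.105% of tests over all genes were called. The sexes did not overlap in 4 of 51 pairs with enough counts, against 1.98% over all genes. TACR2 was among them 3 times, higher in the 4 females in the entorhinal and perirhinal cortex (6.89 ± 1.16 against 5.22 ± 0.446 CPM, SD, n = 4), the striatum (4.91 ± 0.913 against 3.07 ± 0.371 CPM) and the pituitary (1.14 ± 0.284 against 0.597 ± 0.170 CPM). TAC1 in the substantia nigra was lower in the females (4.05 ± 0.481 against 6.44 ± 0.897 CPM). The TACR2 contrasts were 0.40 (SE 0.21) in the entorhinal and perirhinal cortex and 0.67 (SE 0.21) in the striatum. TACR2 in the pituitary was not tested by edgeR. Animal 6, a female, had the highest TACR2 in these 3 groups, at 8.53, 5.99 and 1.43 CPM. In the other region groups TACR2 overlapped between the sexes, and in the substantia nigra its mean was lower in the females (2.50 against 2.68 CPM).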

How the data were processed

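Ribosomal RNA-depleted, directional libraries were made from each sub-region of 8 rhesus macaques. The authors ran Trim Galore 0.4.4 on low-quality samples, used HISAT2 2.0.5 for alignment to Mmul 8.0.1 and counted reads per Ensembl 91 gene with HTSeq 0.6.1, and the table they deposited holds raw counts, neither normalized nor filtered. The strand setting of the counting is not given in the sources used here. No sequences are printed. The 8 midbrain samples and the 33 chromatin accessibility samples were not analysed here.

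The 5 members and all gene lists were chosen with earlier results of these data known. Lists matched 48 of 51 symbols and cell type marker lists 46 of 61; marker sums use the matched genes only. Named genes were the members, the list genes and the 3 genes most correlated with each member over sub-regions, with a mean of at least 1 CPM in some sub-region. Samples were grouped by their labels, and same-numbered samples are paired because they come from the same animal.

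Counts were summed within animal and region group or lobe, while levels are means over sub-regions. Tests were edgeR 4.0.16 quasi-likelihood tests (R 4.3.3; TMM, filterByExpr, Benjamini-Hochberg over all genes tested; animal as a block between regions). Region calls needed an adjusted p under 0.05 and, except over lobes, over 2-fold; the test over all groups had no fold limit. Age (mid-aged minus young, sex as covariate) and sex (female minus male, age stage as covariate) needed an adjusted p under 0.1 and over 2-fold. A gene was specific to a group if it passed the test over all groups and its level was over 2-fold that of each other group. Pairs without overlap were counted where the mean count was at least 10. Levels were compared between neighbours on log2(CPM + 1). Each tissue of an animal is 1 sample. With animal as a block, region p-values rest on the spread left after each animal's own level, pooled over the groups of the fit. Age and sex p-values rest on the spread between animals. Scripts were tested on simulated data. Alternatives were DESeq2 1.42.0, its size factors in edgeR, no filter, no animal block or covariate, 1 fit over sub-regions, and left-out libraries.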

Additional observations from a re-analysis of the deposited data

Results flagged for a closer look

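In each group of 8 animals the highest or lowest value was compared with its nearest neighbour, and 15 of 93 combinations of member and structure had a value whose gap to the others exceeded Dixon's critical value for 8 samples. Chance alone flags about 1 in 20 where values are normally distributed, which was not checked for these levels. Structures of 1 animal are also not independent. All 15 values are in CPM and lie at the high end.

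TAC1 stood apart in the ventral tegmental area of animal 7 (184.6, the next being 68.56), the globus pallidus of animal 3 (94.12, next 29.1), the olfactory bulb of animal 4 (16.94, next 8.847) and the corpus callosum of animal 3 (7.727, next 3.948). TAC3 did so in the medulla oblongata of animal 4 (29.28, next 2.099), in the dentate gyrus of animal 3 (4.659, next 2.649), and in the pons of animal 11 (0.1676) and the pituitary of animal 7 (0.1303), where all other libraries had a count of 0.

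TACR1 stood apart in the olfactory bulb of animal 7 (26.46, next 14.06) and the thalamus of animal 4 (11.1, next 7.623). TACR2 did so 4 times in animal 6, in the hippocampus (9.245, next 5.94) and within it in CA1 (9.745, next 5.784), in the hypothalamus (6.411, next 3.105) and in the pons (3.04, next 1.893). It also did so in the ventral tegmental area of animal 10 (3.219, next 2.137). The causes were not tested.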

How the results depend on the processing

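Without the animal block (the pairing comes from the animals), 1 member passed the test over hippocampal fields (2 with it) and 1 hippocampal pair was called (2 with it), the cerebellar count went from 1 to 0, the test over lobes from 4 to 0 and the lobe contrasts from 9 to 2. It also ended the TAC3 calls of entorhinal and perirhinal cortex against cortex (adjusted p = 0.0732) and of amygdala against hippocampus (adjusted p = 0.0702), which DESeq2 lost too (0.152 and 0.0787). For age, the count of 0 became 3 with DESeq2, 2 without a filter and 0 to 1 with each animal left out. In the unfiltered thalamic fit 294 genes were called, against 1 with the filter, and TAC1 had an adjusted p of 8.68e-28; over the other alternatives it lay between 0.0431 (without animal 7) and 0.657. For sex, the count was 1 without a filter and 0 to 0 with each animal left out. With a pseudocount of 0.1 the neighbours told apart went from 10 to 0. The causes were not tested. For 92 contrasts of members, those called and the uncalled ones most discussed, 784 alternative values were computed. Of these 756 kept their direction and their side of the threshold, 18 fell short of it, 10 passed it (7 of them for age) and 0 changed direction. Leaving out the globus pallidus sample of animal 3, the medulla samples of animals 4 and 6 and the ventral tegmental area sample of animal 7 was chosen after seeing the data. Depth limits TACR2, with a median of 43 counts a sample. It also limits TAC3 where its levels were low, as in the olfactory bulb, corpus callosum, thalamus, midbrain pair, pons, cerebellum and pituitary. The same holds for TACR1 in the cerebellum and pituitary, and 21 samples had 3 counts of TACR1 or fewer.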

Other observations

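TACR2 was highest in animal 6 in 12 of the 16 region groups and lowest there in 0. Animal 6 is a mid-aged female, and its hypothalamus sample also held the cortical marker genes named above.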
